A study of Mus musculus with 6 samples.

Results

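Sox and forkhead genes encode transcription factors that share a DNA-binding domain within each family, and 62 of them, 19 Sox and 43 forkhead genes, were followed among 19938 genes measured in dentate gyrus (DG) granule cells of Bcl11b/Ctip2 mutant and control mice. A gene was included when its symbol in the platform annotation read Sox with a number or Fox with 1 letter and a number. Probe sets annotated with 1 symbol only were used, and of 64 such probe sets the one with the highest mean over the 6 arrays stood for its gene. Bcl11b/Ctip2 is a zinc finger transcription factor of DG granule cells, and the study asked which genes respond when it is lost from the adult hippocampus. The mutation was induced in mice aged 2 months of a tet-off line (Bcl11b flox/flox, tetO-Cre, CaMKIIα-tTA), in which the CaMKIIα promoter, active in forebrain excitatory neurons, drives a transactivator that switches on Cre once doxycycline is withdrawn. The granule cell layer was cut from stained cryosections by laser capture microdissection 4 weeks after induction, and RNA of 3 mutants and 3 controls was hybridized to 1 Affymetrix mouse gene array each. The sources used here do not give the genotype of the tet-off controls. All mice of this line received doxycycline until induction. Whether an array holds the RNA of 1 animal is not stated, and p-values below reflect only how far these samples spread.

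Sox proteins bend DNA through an HMG box and usually bind next to a partner factor. They are grouped by letters: SoxB1 proteins (Sox1, Sox2, Sox3) maintain neural stem cells, SoxC proteins (Sox4, Sox11, Sox12) act in young postmitotic neurons, SoxD proteins modulate other Sox proteins, SoxE proteins (Sox8, Sox9, Sox10) belong to glia and the neural crest, and SoxF proteins to endothelium. Forkhead proteins bind through a winged-helix domain and are lettered A to S. The FoxO proteins Foxo1, Foxo3 and Foxo4 leave the nucleus when Akt phosphorylates them downstream of insulin and growth factors. FoxP proteins are repressors with roles in forebrain neurons, and FoxN and FoxK proteins are mostly broadly expressed. In the adult DG, Sox2 marks the stem cells of the subgranular zone, and Sox11 appears in their newborn neurons together with doublecortin.

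The values are log2 expression values that the authors made with RMA, which brings the probe intensities of all arrays to a common distribution before they are combined. After this the medians of the 6 arrays over all probe sets ran between 6.29 and 6.36. Over the genes tested, the medians were 7.073, 7.079 and 7.081 in mutants and 7.033, 7.022 and 7.032 in controls. Every mutant median thus lay above every control median, and counts with arrays centred on their medians are also given below. The targeted gene Bcl11b had log2 levels of 9.03, 8.68 and 8.82 in mutants and 10.56, 10.40 and 10.30 in controls, a change of -1.58 (limma adjusted p = 2.56e-05). Prox1, the transcription factor that defines granule cells, was at 11.65, 11.59 and 11.57 in mutants and at 11.81, 11.70 and 11.45 in controls. Other markers of these cells did change: of 15 measured markers of granule cells 8 were lower and 2 were higher, with a mean over the list of 10.39 to 10.45 in mutants and 10.97 to 10.99 in controls. Of 15 pyramidal or mossy cell markers 4 were higher and 2 were lower (40%, against 15.2% of all genes). The 15 microglia markers all had a negative change (median -0.26), and 2 passed the test, or 8 without control 1. Of 13 meningeal fibroblast markers 3 were lower. Of 15 inhibitory neuron markers 1 was higher and 2 were lower. Of 13 pericyte or smooth muscle and 13 ependymal or choroid plexus markers 1 each passed. The part of these shifts in the values below was not tested. Control 1 stood apart from the other controls. On the second principal component of all genes (14.5% of the variance) it lay at 16.34 and control 3 at -11.79. The remaining arrays lay between -2.70 and 1.85. For 31 of the 62 Sox and forkhead genes control 1 was the control array farthest from its group mean (50%, against 43% of all genes). The counts of changed genes are therefore also given without it. RNA was taken from a tissue layer, so fewer cells of a type and less RNA per cell cannot be told apart.

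Of the 62 members 4 changed. Sox11, Foxn3 and Foxq1 were higher in mutants and Foxo6 was lower, each by 1.38-fold at most, and the other 58 did not pass the test. The test was limma, with p-values adjusted over all 19938 genes and a threshold of 0.05. The 4 genes are 6.45% of the members, where 15.2% of all genes passed (9.23% higher, 5.93% lower). That split of all genes was 1840 higher and 1183 lower, but 1423 higher and 1800 lower with arrays centred on their medians and 1628 higher and 1545 lower after renewed quantile normalization, whereas the members were 3 higher and 1 lower, 3 and 2 when centred, and 2 and 1 after renewed quantile normalization. Of the Sox genes 1 of 19 passed (5.26%), and of the forkhead genes 3 of 43 (6.98%). Changes of the 62 members ran between -0.33 and 0.46 on the log2 scale, with a median of 0.023 against -0.0027 for all genes, and a median size of 0.070 regardless of sign against 0.082 for all genes. No member reached a 2-fold change, and 235 of all genes (1.18%) did. The values of mutants and controls did not overlap for 10 members (16.1%), against 31.6% of all genes. At an unadjusted p under 0.05 there were also 10 members (16.1%), against 27.2% of all genes.

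**Figure D1:**
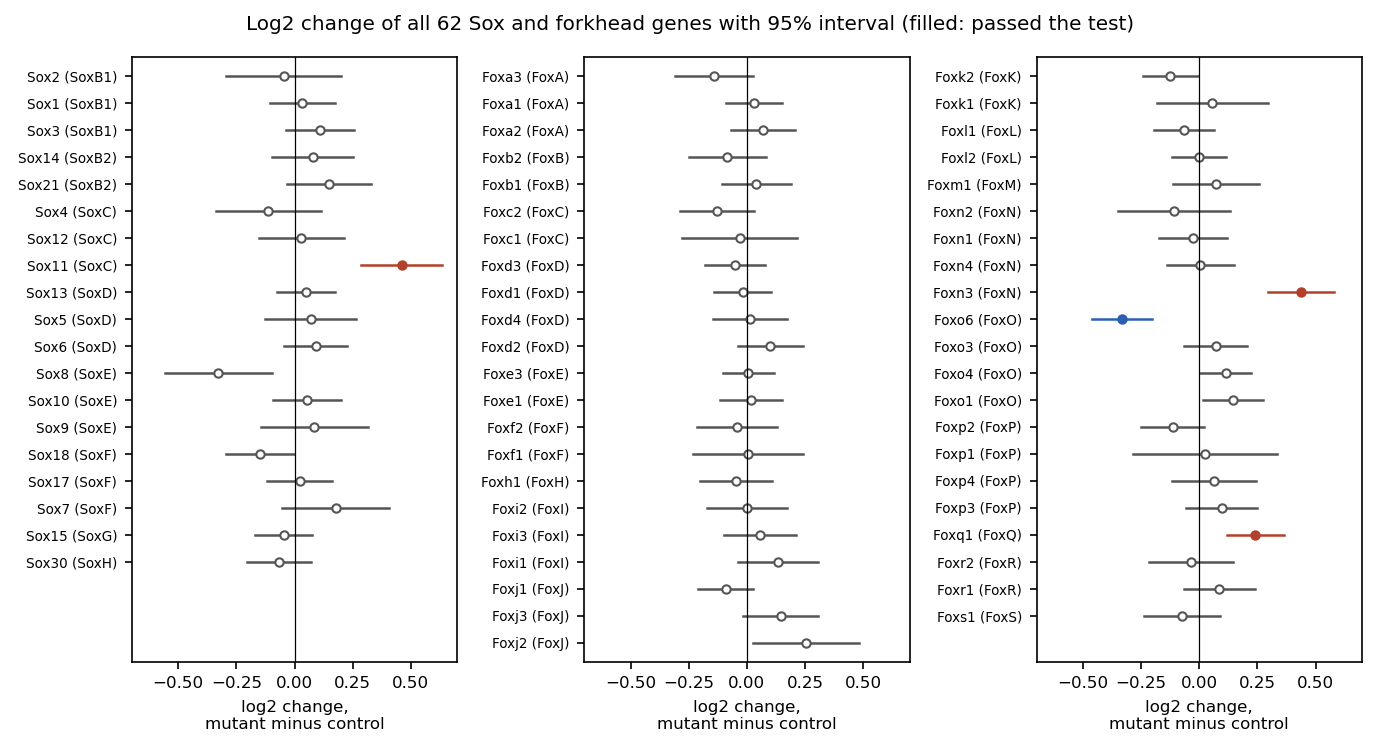
Log2 change (mutant minus control, x axis) of each of the 62 genes with its 95% interval from limma, n = 3 arrays a group, ordered by subfamily. Filled points passed the test: Sox11, Foxn3 and Foxq1 lie to the right of 0 and Foxo6 to the left, and the open points lie between -0.33 and 0.25.

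These counts differed with level. Members were often dim: 38 of 62 had a mean below the median of all genes (a log2 level of 7.06). Of the 24 members at or above that median 3 passed (12.5%), against 25.0% of all such genes, and of the 38 below it 1 passed (2.63%), against 5.34%. The deposited values come without a detection call, and for a dim gene it is not known whether its RNA was present.

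**Figure D2:**
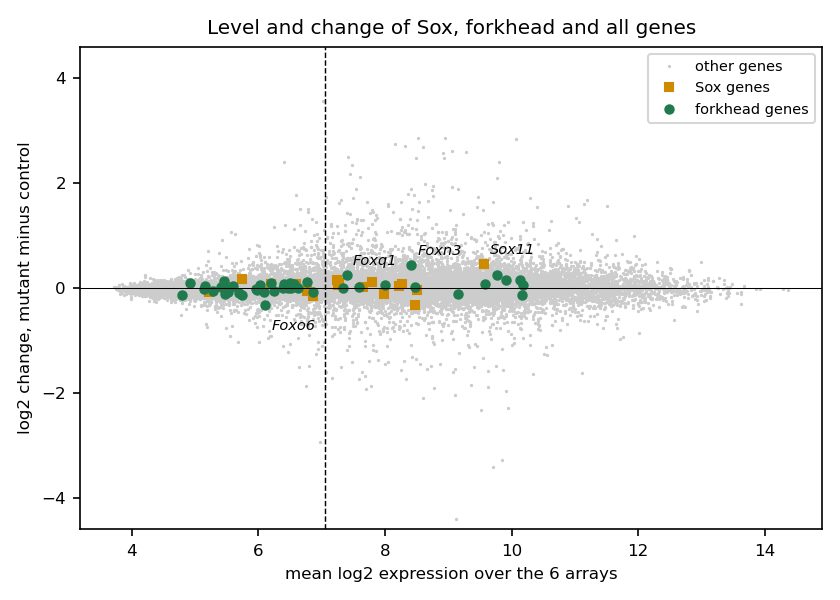
Mean log2 expression over the 6 arrays (x axis) against the log2 change, mutant minus control (y axis), for Sox genes (squares), forkhead genes (circles) and the other genes tested (grey dots), with the median level of 7.06 dashed. The members stay between -0.33 and 0.46, and Foxo6 is the changed member left of the dashed line.

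Among the SoxC genes, Sox11 was higher in mutants and its 2 relatives did not pass. Sox11, a transcriptional activator of young neurons, had log2 levels of 9.83, 9.89 and 9.66 in mutants and 9.42, 9.24 and 9.35 in controls. Every mutant array lay above every control array. The change was 0.46 (SE 0.076, 95% interval 0.29 to 0.63), or 1.38-fold, with an adjusted p of 0.00413. The call was lost under the methods' t-test with Benjamini-Hochberg adjustment (adjusted p = 0.0726) and kept by every limma alternative. Sox4, which shares target genes with Sox11 in young neurons, was at 7.87, 8.17 and 7.76 in mutants and at 8.12, 8.02 and 7.99 in controls. These values overlap, and the interval of the change ran between -0.34 and 0.11. Sox12, the least studied SoxC gene, changed by 0.029 with an interval of -0.15 to 0.21.

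Upstream sequences are printed here for Sox11 and for Sox4, its relative that did not pass, and below for Foxn3. None is printed for Foxo6 and Foxq1. The windows are the 250 bases before the start of the gene in RefSeq (GRCm38.p6), 5′ to 3′ on the gene's own strand, which is the minus strand for each. Capitals mark the CCAAT box, an element bound by NF-Y, searched as CCAAT and ATTGG.
Sox11 (chr12:27342719-27342968): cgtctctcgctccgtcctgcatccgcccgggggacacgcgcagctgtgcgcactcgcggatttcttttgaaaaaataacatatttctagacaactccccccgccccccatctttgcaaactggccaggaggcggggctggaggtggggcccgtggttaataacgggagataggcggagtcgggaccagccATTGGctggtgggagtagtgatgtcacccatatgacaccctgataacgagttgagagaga
Sox4 (chr13:28953700-28953949): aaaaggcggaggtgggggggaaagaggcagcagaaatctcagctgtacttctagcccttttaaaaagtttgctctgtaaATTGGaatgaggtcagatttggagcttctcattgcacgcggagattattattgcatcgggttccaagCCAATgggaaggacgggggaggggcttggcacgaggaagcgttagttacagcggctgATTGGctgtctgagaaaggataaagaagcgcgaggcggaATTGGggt
The Sox11 window holds 1 CCAAT box and the Sox4 window 4, in a motif that was chosen after these sequences had been read and that is found in 33.8% of 32851 such windows of all genes and in 45.1% of the 51 windows of 41 members. The study names TGGGC as a putative binding site of Bcl11b/Ctip2. On either strand (TGGGC or GCCCA) it was not found in the windows of Sox11, Sox4 or Foxn3, and it was found in 54.9% of the members' windows and 50.7% of all windows. No other motif was searched.

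Young neurons express Sox11, and 2 of 11 measured markers of immature neurons, Dcx and Stmn1, were higher in mutants (18.2%, near the 15.2% of all genes). The mean log2 level over these 11 markers was between 8.40 and 8.55 in mutants and between 8.22 and 8.55 in controls, so the arrays overlapped. Of 11 markers of neural stem cells 1 was higher, and 0 without control 2. The part of these cells in the Sox11 result was not tested.

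**Figure D3:**
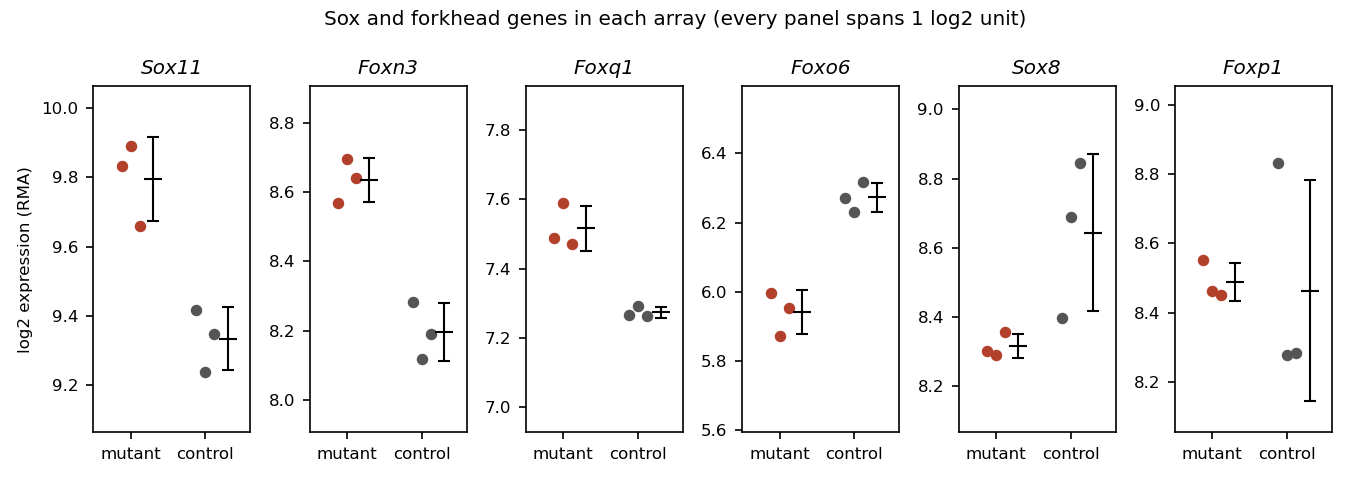
Log2 expression (y axis, each panel spanning 1 log2 unit) in the 3 mutant arrays (left of each panel) and the 3 control arrays (right) for the 4 changed genes and for Sox8 and Foxp1, with mean and SD at the side. The groups are apart for Sox11, Foxn3, Foxq1, Foxo6 and Sox8, and 1 control array of Foxp1 lies at 8.83 above the other 5.

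SoxE genes, which are known from glia, did not pass, and Sox8 came nearest. Sox8, a gene of oligodendrocytes and astrocytes, had log2 levels of 8.30, 8.29 and 8.36 in mutants and 8.40, 8.69 and 8.84 in controls. The groups did not overlap, but control 1 lay next to the mutants and apart from the other controls. The change was -0.33 (interval -0.56 to -0.096, adjusted p = 0.0649), and without control 1 it was -0.45 with an adjusted p of 0.00126. Sox8 also passed with the replicate block (adjusted p = 0.0325), after centring (0.0379), with the filter on dim genes (0.0486) and with array weights (0.00280). Sox9, a factor of astrocytes and stem cells, changed by 0.084 (interval -0.15 to 0.31), and Sox10, which oligodendrocytes require, by 0.052 (interval -0.094 to 0.20). The mean over 13 oligodendrocyte markers lay between 7.39 and 7.56 in mutants and between 7.72 and 7.81 in controls. Their median change was -0.18 and the lowest was -1.71. Of these markers 2 were lower, Ermn and Ugt8a (15.4%, near the 15.2% of all genes). This count was 6 without control 1, with array weights and with the replicate block, 5 after centring, 4 after renewed quantile normalization, 3 without mutant 2, and 1 without mutant 3, control 2 or control 3. Of 12 markers of oligodendrocyte precursors 0 passed in limma, with 1 at an unadjusted p under 0.05. Of 16 astrocyte markers 4 were higher, with means of 8.93 to 9.12 in mutants and 8.74 to 8.98 in controls, and 2 passed without control 2 and 1 under the methods' t-test with adjustment. The part of glial cells in the Sox8 values was not tested.

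The remaining Sox genes did not pass. The stem cell factor Sox2 was at 8.39, 8.66 and 8.41 in mutants and at 8.43, 8.41 and 8.76 in controls, an overlap that left a change of -0.047 (interval -0.29 to 0.20). Sox21, a SoxB2 protein that counteracts SoxB1 proteins, changed by 0.15 (interval -0.031 to 0.33), and Sox6, a SoxD protein of cortical interneurons, by 0.091 (interval -0.044 to 0.22). Neither passed. Among the SoxF genes of endothelium, Sox18 was dim and changed by -0.15 with an adjusted p of 0.173. Of 16 endothelial markers 1 was higher and 1 was lower. In all 4 of them passed without control 1, 3 without control 2, and 1 without mutant 2, mutant 3 or control 3.

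Foxn3 had the smallest p of all members. This forkhead protein acts as a repressor and is known from cell cycle checkpoints. Its log2 levels were 8.57, 8.69 and 8.64 in mutants and 8.28, 8.12 and 8.19 in controls, again without overlap. The change was 0.44 (SE 0.063, interval 0.30 to 0.58), or 1.36-fold, with an adjusted p of 0.00194, and it was kept under every alternative tried. A second probe set of Foxn3 measured 8.29, 8.41 and 8.25 in mutants and 8.14, 8.14 and 8.08 in controls. It moved the same way, by 0.20 (interval 0.058 to 0.33), but did not pass when all probe sets were tested (adjusted p = 0.0649). The mean of both probe sets gave 0.32 with an adjusted p of 0.00641. The 250 bases before the Foxn3 start hold neither motif.
Foxn3 (chr12:99450075-99450324): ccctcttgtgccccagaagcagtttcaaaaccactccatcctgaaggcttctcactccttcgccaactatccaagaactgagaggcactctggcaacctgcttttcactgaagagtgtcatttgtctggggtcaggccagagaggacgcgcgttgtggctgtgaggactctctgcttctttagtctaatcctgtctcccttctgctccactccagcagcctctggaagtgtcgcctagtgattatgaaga
Foxn2, the closest relative of Foxn3, was at 9.02, 9.14 and 9.17 in mutants and at 8.96, 9.29 and 9.40 in controls. The mutant values lay within the range of the controls, and the change was -0.11 (interval -0.35 to 0.13). Foxn1, the thymus gene of the nude mouse, and Foxn4, a factor of retina and spinal cord, were dim and changed by -0.028 and 0.0041.

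Foxq1 was higher in mutants, at 7.49, 7.59 and 7.47 against 7.27, 7.29 and 7.26 in controls. The 3 control arrays lay close together and below every mutant array. The change was 0.24 (SE 0.055, interval 0.12 to 0.37), or 1.18-fold, with an adjusted p of 0.0183. Foxq1 is known from epithelia, hair follicles and brain endothelium, and the endothelial markers had means of 7.13 to 7.32 in mutants and 7.10 to 7.27 in controls. Their part in the Foxq1 result was not tested. This call was the least stable of the 4: the adjusted p was 0.0532 without mutant 1, 0.0745 without mutant 2, 0.0553 without control 2, 0.0600 after renewed quantile normalization and 0.0531 under the methods' t-test.

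Of the 4 FoxO genes 1 passed. Foxo6, the FoxO gene of hippocampal and cortical neurons, was the only member that passed with a lower level. It had log2 levels of 5.998, 5.872 and 5.955 in mutants and 6.271, 6.231 and 6.317 in controls, with no overlap. The change was -0.33 (SE 0.057, interval -0.46 to -0.20), or 0.795 of the control level, with an adjusted p of 0.00487, and every alternative that kept the gene also kept the call. Its level lay below the median of all genes, and how far it stood above background is not known. Foxo1, a mediator of insulin signalling, was at 10.19, 10.20 and 10.22 in mutants and at 10.10, 10.10 and 9.97 in controls. Here the mutants were the higher group without overlap, by 0.15 (interval 0.017 to 0.27), but Foxo1 did not pass (adjusted p = 0.131). Foxo4, a FoxO gene of muscle and other tissues, was at 6.82, 6.83 and 6.83 in mutants and at 6.73, 6.69 and 6.72 in controls. Its change of 0.11 had an adjusted p of 0.176 in limma and 0.0342 under the methods' t-test, which uses only the spread of this gene. Foxo3, which keeps adult neural stem cells quiescent, changed by 0.070 (interval -0.066 to 0.21).

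Changed genes were also set beside their relatives within arrays. For each of the 8 pairs of a changed gene and another gene of its subfamily, the difference of their log2 values was taken in each array and compared between the groups. The difference of Sox11 and Sox4 was 1.96, 1.73 and 1.90 in mutants and 1.29, 1.22 and 1.36 in controls, so it was larger by 0.57 in mutants. For Sox11 and Sox12 it was larger by 0.43. Foxn3 gained 0.47 on Foxn1, 0.55 on Foxn2 and 0.43 on Foxn4, and Foxo6 lost 0.48, 0.40 and 0.44 to Foxo1, Foxo3 and Foxo4. In all 8 pairs the mutant and control arrays did not overlap. The first gene of each pair was picked because it had passed, which largely fixes this outcome, so the differences are a description without a test.

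**Figure D4:**
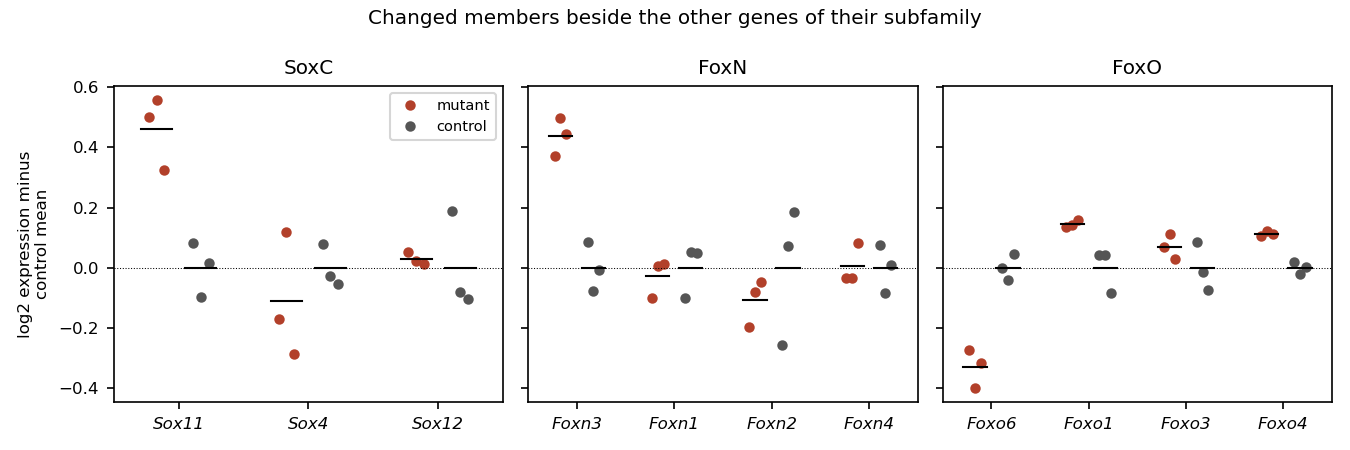
Log2 expression of each array minus the mean of the control arrays (y axis) for the SoxC, FoxN and FoxO genes, with mutant arrays on the left and control arrays on the right of each gene and the group mean as a bar. Sox11 and Foxn3 stand above their relatives by 0.43 to 0.57 and Foxo6 lies below its relatives by 0.40 to 0.48.

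The other forkhead genes did not pass. Foxp1, a repressor of striatal, cortical and CA1 neurons, was at 8.55, 8.46 and 8.45 in mutants and at 8.83, 8.28 and 8.28 in controls. Control 1 alone was high, and the change of 0.024 (interval -0.28 to 0.33) became 0.21 (adjusted p = 0.0330) without it. Foxk2 was lower in each mutant array than in each control array (10.07, 10.11 and 10.13 in mutants and 10.26, 10.23 and 10.19 in controls). It changed by -0.12 and did not pass (adjusted p = 0.158). Foxk1, which like Foxk2 represses autophagy genes, changed by 0.056 (interval -0.18 to 0.29). Foxj1, the master regulator of motile cilia in ependymal cells, and Foxi1, a factor of ion-transporting epithelia, were dim, did not overlap between the groups and changed by -0.092 and 0.14, with adjusted p of 0.313 and 0.303. Foxj3, a factor known from muscle and testis, changed by 0.14 (interval -0.016 to 0.31), and Foxe1, a thyroid gene, by 0.018 (interval -0.11 to 0.15). Of the 58 members that did not pass, 57 had a 95% interval within 0.5 of 0 in either direction, and Sox8, whose interval reached -0.56, was the exception. A change of that size was therefore not seen in them at this precision, whereas smaller ones could have been missed.

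The counts of changed members and of all changed genes depended on control 1. Without it 4487 of all 19938 genes passed, a larger share than of the members. Of the 62 members 11 passed, 6 higher and 5 lower. Besides the 4 genes named, these were Sox8 and Foxn2 (-0.24), Foxa3 (-0.21) and Foxc2 (-0.20), which were lower, and Foxj2 (0.37), Foxj3 (0.22) and Foxp1 (0.21), which were higher. Leaving out any other array gave 3 or 4 members.

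Genes that act with or under these factors were followed in 6 lists. In each list most measured genes were at or above the median level. Of all genes at that level 25.0% passed, and of all genes 15.2%. Of 25 measured partners of Sox and forkhead proteins 7 were higher and 2 were lower (36%), and the median change was 0.069. Tbr1, a T-box factor of glutamatergic neurons that binds FoxP2, was at 11.95, 12.19 and 11.95 in mutants and at 10.40, 10.39 and 10.28 in controls, a change of 1.68 (adjusted p = 4.85e-06). Nr2f1, a nuclear receptor of cortical patterning, rose by 0.42 and Gatad2a, a subunit of the NuRD repressor, by 0.31, whereas Smad3, a mediator of TGF-β signals, fell by 0.29. With arrays centred on their medians 4 were higher and 2 lower. Of 20 other HMG-box proteins 1 was higher and 2 were lower (15%, median 0.017). Hmgb3, a chromatin protein of progenitor cells, rose by 0.53, and the nuclear proteins Tox and Tox3 fell by 0.45 and 0.66. The call of Hmgb3 was lost under the methods' t-test with adjustment, and those of Tox and Tox3 under 4 alternatives each.

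Of 12 target genes of SoxB and SoxC proteins 3 were higher (25%), with a median of 0.030. Dcx, the microtubule protein doublecortin of migrating neurons and a target of SoxC proteins, had log2 levels of 9.48, 9.40 and 9.43 in mutants and 8.74, 8.17 and 8.18 in controls. The lowest mutant array lay above the highest control array, and the change was 1.07. The call of Dcx was lost under the methods' t-test with adjustment (adjusted p = 0.0651). Stmn1, which destabilizes microtubules in growing neurites, rose by 0.44 and Neurod1, a differentiation factor of granule cells, by 0.34. Dcx and Stmn1 are also the immature neuron markers given above, and Neurod1 is also among the granule cell markers. The target list is thus not separate from those marker lists. Prox1, also listed as a target, changed by -0.051 and did not pass.

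Of 32 FoxO target genes 5 were higher and 3 were lower (25.0%), with a median of 0.011. Of these 32 genes 21 were at or above the median level, where 25.0% of all genes passed. Ccnd2, a D-type cyclin that FoxO proteins repress and that granule cell progenitors need, was at 11.67, 11.70 and 11.66 in mutants and at 10.25, 10.06 and 10.06 in controls, a change of 1.56. The FoxO-induced genes that passed did not move together. Sesn3, a sestrin that damps mTORC1, rose by 0.48, whereas Ccng2, an atypical cyclin of quiescent cells, fell by 0.49 and Prdx3, a mitochondrial peroxidase, by 0.33. Of 25 regulators of FoxO proteins 3 were higher and 2 were lower (20%). Sgk1, a kinase that inactivates FoxO proteins, had levels of 8.66, 8.62 and 8.59 in mutants and 9.79, 9.33 and 9.29 in controls, and Pik3r1, the regulatory subunit of PI3-kinase, was at 9.16, 9.23 and 8.97 in mutants and at 10.33, 9.80 and 9.75 in controls. Both lay lower in every mutant array, with changes of -0.85 and -0.84. Both calls were lost under the methods' t-test with adjustment (adjusted p = 0.0720 and 0.112) and kept by every limma alternative. Stk4, which activates FoxO proteins, rose by 0.19 and the acetyltransferase Ep300 by 0.31, but Stk4 lost its call under 8 alternatives and Ep300 under 6. With arrays centred on their medians 0 regulators were higher and 3 were lower. Of 7 FoxP target genes 2 passed (28.6%). Mef2c, a synapse-restricting factor, rose by 0.46 and Vldlr, a reelin receptor, by 0.32.

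These list counts also depended on single arrays, as did the count of all genes that passed, which was highest without control 1. Without control 1 the test called 12 partners, 10 FoxO target genes, 5 FoxO regulators, 4 other HMG-box proteins, 2 FoxP target genes and 3 SoxB and SoxC target genes. The partners numbered 3 without mutant 1 or mutant 3 and 4 without mutant 2 or control 2. The FoxO target genes numbered 4 without mutant 1 or mutant 3 and 5 without mutant 2 or control 2. Of the FoxO regulators 2 passed without mutant 1, mutant 2, control 2 or control 3 and 3 without mutant 3, of the other HMG-box proteins 1 without mutant 2 or control 2, and of the FoxP target genes 1 without mutant 1, mutant 3 or control 2. The 3 SoxB and SoxC target genes passed whichever array was left out.

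**Figure D5:**
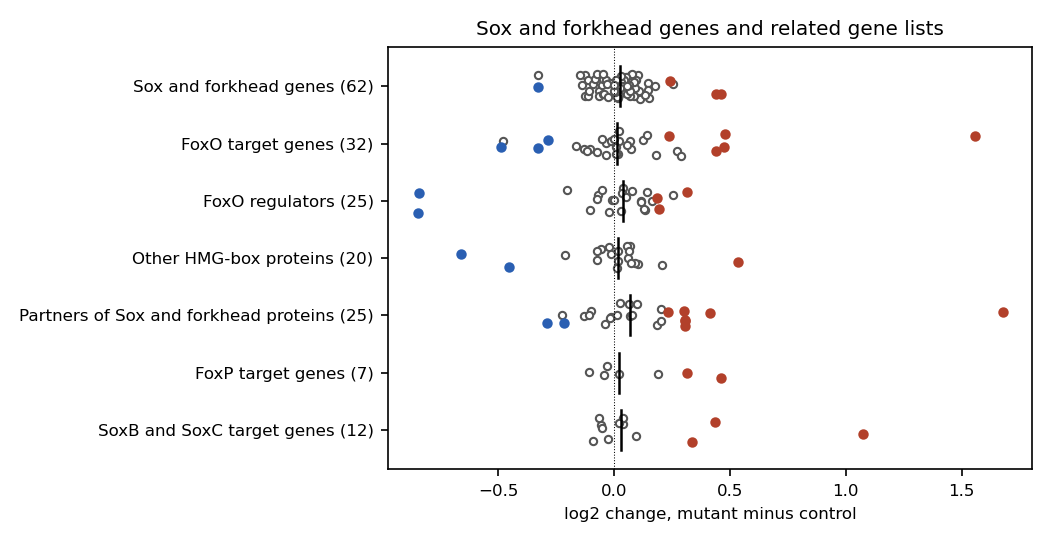
Log2 change, mutant minus control (x axis), of the 62 Sox and forkhead genes and of the measured genes of 6 related lists (rows, number measured in brackets, points spread vertically for legibility). Filled points passed the test and the black bar is the median: all medians lie between 0.011 and 0.069, and single genes such as Tbr1 (1.68) and Ccnd2 (1.56) lie far outside the range of the members.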

How the data were processed

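RNA of the microdissected granule cell layer of 3 mutants and 3 controls was measured on Affymetrix mouse gene arrays with 1 colour. For each probe set the authors deposited a log2 expression value, computed by RMA with the software Expression Console (background correction, quantile normalization, probe summary). No source used here gives versions or a genome build. The table holds a column for each of the 6 arrays and no others.

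In the platform annotation, 21789 of 35556 probe sets have 1 gene symbol, 1621 have several and 12146 are not listed. For genes with several probe sets the one with the highest mean was used, without a filter on level, which left 19938 genes. All 62 members matched RefSeq by Entrez number.

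The comparison used lmFit and eBayes of limma 3.58.1 (R 4.3.3) without covariates (Benjamini-Hochberg over all genes, threshold 0.05). Intervals are 95% intervals from this fit. The number of arrays limits the precision. The test was also run on simulated data with independent genes, few of them changed. Those data lack shared differences between arrays, such as that of control 1, so the run does not bear on single calls. Members and gene lists were chosen with earlier results of these data known, and the lists come from general knowledge. Named are the members that passed, the brightest other member of each subfamily above the median level, members whose groups did not overlap, up to 4 passing genes of each list by smallest p, and Bcl11b. Outside this rule stand Foxj2, Foxa3 and Foxc2, which passed without control 1, Sox9, Sox10, Sox12, Sox18, Foxn1, Foxn4 and Foxo3, chosen after their values were seen, and the cell markers Prox1, Ermn and Ugt8a.

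The methods' t-test is the unpaired two-tailed t-test that the study gives for group comparisons in general. For the arrays the study names the software BRB-ArrayTools without a test. This t-test was run as an alternative, adjusted and unadjusted. Other alternatives were a robust prior with a mean-variance trend, array weights, a filter at the median level of 7.06, the mean of all probe sets, renewed quantile normalization, arrays centred on their medians, a block for the replicate number and leaving out each array. No source gives a batch or says what the replicate numbers mark. Same-numbered arrays deviated together with correlations of 0.164, -0.0328 and 0.118 only, so arrays were not paired. Within-array differences of subfamily members and the CCAAT motif were added after seeing the data.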

Additional observations from a re-analysis of the deposited data

How the results depend on the processing

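Of the 4 changed members, Foxn3 kept its call under every alternative, Foxo6 under every one that kept the gene, Sox11 under all but the methods' t-test, and Foxq1 lost it under 5. Against 4 of 62 members and 3023 of 19938 genes, the methods' t-test called 4545 genes and 8 members without adjustment. With adjustment it called 1141 genes and the members Foxo4, Foxo6 and Foxn3. Array weights called 5527 genes and 12 members (4 Sox, 8 forkhead). They gave control 2 a weight of 3.06, control 1 one of 0.373 and control 3 one of 0.545. In each of these runs a smaller share of the members than of all genes passed, but under the adjusted t-test the shares were close. Of the Sox genes, against 1, the adjusted methods' t-test called 0 (1 without adjustment), and the filter on dim genes, centring and the replicate block called 2, with Sox8 added. Of the forkhead genes, against 3, the unadjusted methods' t-test called 7. Leaving out 1 array gave 1886 to 4487 genes, 3 to 11 members, 1 to 2 Sox and 2 to 9 forkhead genes, with the highest counts of genes, members and forkhead genes without control 1. The cause of these shifts was not tested. The replicate block, under which arrays are paired by number, called 5 members and 3176 genes, and in 4 of 6 arrays the deviations were most like those of the same-numbered array, a hint from the data only. The sign turned under at least 1 alternative for 24 members, 0 of which had passed, and Sox9 had the largest change among them (0.084). The members named by the rule were 4 of these: Foxe1 was at -0.0063 with array weights, -0.043 after renewed quantile normalization and -0.030 after centring, and at -0.021 to 0.043 without 1 array. Foxp1 was at -0.035 after renewed quantile normalization, -0.024 after centring and -0.069 to 0.21 without 1 array. Foxk1 was at -0.063 to 0.17 and Sox2 at -0.14 to 0.066 without 1 array, and Sox2 at 0.013 with array weights. Of 20 named list genes that passed, 8 kept the call throughout and 0 changed sign. The call was lost for 11 under the adjusted methods' t-test. Some limma alternative ended it for 7, namely Prdx3, Stk4, Ep300, Smad3, Vldlr, Tox and Tox3. With 3 arrays a group, changes within the intervals given could have been missed.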
